A study of Mus musculus with 24 samples.

Results

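C2C12 is a mouse myoblast line, a permanently dividing line of muscle precursor cells that stop dividing and fuse into contractile myotubes when they become crowded and growth factors are withdrawn. Leaving the cell cycle and switching on muscle genes are linked: MyoD and Myf5 mark committed myoblasts, myogenin starts terminal differentiation, and the muscle genes that follow encode the sarcomere, the calcium release machinery and the acetylcholine receptor. Crowding also changes signals from neighbouring cells and from the matrix beneath them. The comparison described here is the last day before differentiation was induced: confluent C2C12 cells on day 0, the time at which the differentiating medium was added, against C2C12 cells still proliferating on day -1. It takes in 6 of the 24 arrays of the series, which followed the line over 8 days with 3 arrays each, and all probe sets other than the array's controls. Proliferating cells of day -2 were used to set the step before beside it. Nothing in the labels says if day 0 cells were lysed ahead of the medium change or following it, nor that the 3 replicates grew as separate cultures. The p-values therefore reflect the spread among arrays of the same day, estimated jointly over the 8 days, and this spread may be technical. All cells were of 1 line, and the labels name no genetic change or drug on either day.

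Total RNA was hybridised to Affymetrix MG_U74Av2 arrays, on which each probe set reports 1 intensity in arbitrary units. Array means were already on 1 scale. Of 12422 probe sets, 8484 were bright enough to test, and 7635 of these named 1 gene, covering 6287 genes. Values below an intensity of 77 were raised to it, and a gene with 2 or 3 arrays of its lower day at this floor is given as a bound ("at least"). Differences are day 0 minus day -1 in mean log2 intensity ± SE, n = 3 arrays each. Adjusted p-values are from limma after Benjamini-Hochberg adjustment over all tested probe sets, called below 0.05. SE and p-values use a spread estimated from all 24 arrays. A gene that was uneven on 1 day can therefore have a smaller SE than its own arrays would give. Between 18.2% and 24.2% of values lay at the floor on day 0 arrays, and between 18.4% and 22.5% on day -1 arrays. The 3' to 5' ratio of Gapdh probe sets, a sign of RNA integrity, was 0.811, 0.856 and 0.801 on day 0 and 0.862, 0.82 and 0.834 on day -1. Correlations over probe sets lay between 0.962 and 0.967 among arrays of 1 day and between 0.913 and 0.927 across the days. The headers placed day 0 replicates 1 and 3 and day -1 replicate 3 on 1 chip lot, day 0 replicate 2 on a lot of its own and day -1 replicates 1 and 2 on another. No scan day held arrays of both days, so scan day and day cannot be told apart within these 6 arrays. Day 0 replicates 1 and 2 were each alone on their scan day, and day -1 replicates 1 and 2 shared a scan day with no other array. With scan day fixed, the difference therefore rests on replicate 3 of each day, linked through arrays of other days.

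Between the 2 days, 2189 of the 8484 tested probe sets changed. On day 0, 1011 of 8484 probe sets were higher (11.9%) and 1178 were lower (13.9%), at adjusted p under 0.05. Of these, 337 rose and 399 fell by at least 2-fold, and 67 rose and 61 fell by at least 4-fold. The median difference over all probe sets was 0.007. The arrays of the 2 days did not overlap in 3370 of the 8484 tested probe sets, of which 971 were called higher and 1147 called lower. In bulk RNA such as this, fewer cells of a type and less RNA per cell cannot be told apart. The 15 genes with the largest rises included the muscle genes Actc1, Tnnt1, Myog, Myl1, Chrng, Acta1, Tnni1, Atp2a1 and Tnnt3. The 15 with the largest falls included genes of mitosis and DNA replication, among them Kifc1, Ect2, Asf1b, Tk1, Kif20a, Foxm1, Hells and Topbp1. Others among the rises were Ptprv, a receptor-type phosphatase that was at least 13.3-fold higher on 1 probe set but differed by 2.20 (adjusted p = 9.79e-05) and 1.47 (adjusted p = 0.0607) on the others, and G0s2, an inhibitor of fat breakdown that rose by 3.01 ± 0.20 (adjusted p = 4.94e-11). The day before, between day -2 and day -1, 788 probe sets had been called, 515 upward and 273 downward. When scan day entered the fit as a fixed factor, 274 probe sets were called in place of 2189, among them 27 of 55 tested mitosis genes and 13 of 55 DNA replication genes, all lower.

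**Figure D1:**
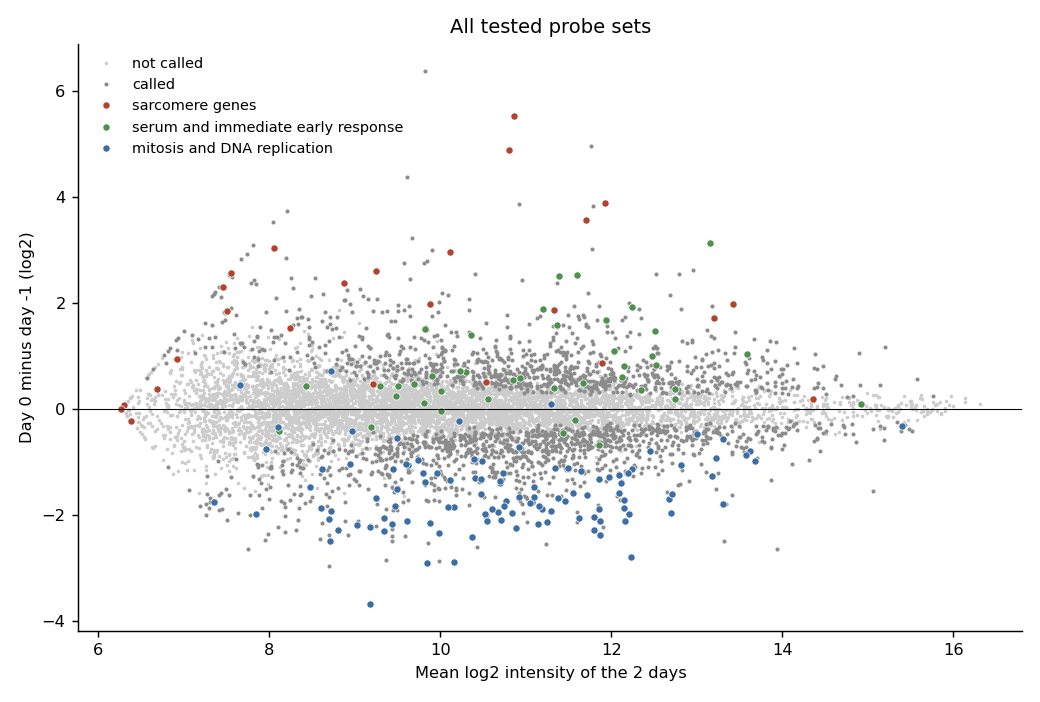
Difference between day 0 and day -1 (log2, vertical axis) against the mean log2 intensity of the 2 days (horizontal axis) for each of the 8484 tested probe sets, with called probe sets in dark grey. Taking each gene of the lists by its brightest probe set, no sarcomere gene was called lower and no gene of mitosis or DNA replication was called higher.

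The muscle regulators were the first group examined. Myogenin, the transcription factor that commits myoblasts to terminal differentiation, was low in dividing cells and bright on day 0. The 3 arrays of day 0 gave Myog intensities of 17916, 14105 and 28378, and those of day -1 gave 574, 786 and 539.8, and the 2 days did not overlap. Every day 0 array lay far above every day -1 array. The difference was 4.95 ± 0.22 (adjusted p = 6.61e-14), a 30.9-fold rise. Myod1 read 27721, 25619.9 and 26948 on day 0 and 11921, 12104 and 12244 on day -1, so that all day 0 values lay above all day -1 values. Myod1 encodes MyoD, which acts upstream of myogenin. Its RNA was already abundant in dividing cells and rose further, by 1.15 ± 0.098 (adjusted p = 5.42e-09). The muscle determination factor Myf5 differed by -0.85 ± 0.27 (adjusted p = 0.0206), but its call was lost without day 0 replicate 3 (-0.69), day -1 replicate 2 (-0.84) or day -1 replicate 3 (-0.64). Of 27 tested myogenic factors and co-factors, 9 rose and 1 fell, where 12.6% of all 6287 tested genes rose and 15.2% fell, taking each gene by its brightest probe set. With scan day fixed 3 of the factors were called higher. Smyd1, a muscle-restricted histone methyltransferase needed for myofibril assembly, was at least 5.76-fold higher on day 0, while a second probe set gave 0.20 (adjusted p = 0.86). Mef2a, a MADS-box partner of the MyoD family, rose by 1.07 ± 0.11 (adjusted p = 7.69e-08). Pitx3, a homeobox factor of muscle progenitors, rose by 1.48 ± 0.35 (adjusted p = 0.00234). The late regulator Myf6 lay below the floor in each day 0 array, and its difference was -0.97 ± 0.41 (adjusted p = 0.0904). Mef2c was dim on both days, at -0.54 ± 0.42 (adjusted p = 0.407), while 1 of its other probe sets gave 0.58 (adjusted p = 0.0309).

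Genes whose products restrain MyoD rose on the same day. Of 18 tested antagonists of myogenic factors, 9 rose and 1 fell, with a median difference of 0.59 against 0.0 over all genes, and 2 rose with scan day fixed. On day 0 the intensities of Id1 were 11963, 12922 and 10265, and on day -1 they were 5473, 5059 and 4280.5, without overlap. Id1, which binds the E-protein partners of MyoD and keeps them from DNA, rose by 1.25 ± 0.13 (adjusted p = 6.22e-08). Its relatives Id2 and Id3 rose by 0.68 ± 0.16 (adjusted p = 0.00289) and 0.72 ± 0.15 (adjusted p = 0.000777). Snai1, a zinc-finger repressor, rose by 1.16 ± 0.20 (adjusted p = 0.00011), while the related Snai2 fell by 0.67 on the log2 scale (adjusted p = 0.000985). Bhlhe40, a repressor of the basic helix-loop-helix family, rose by 1.04 ± 0.16 (adjusted p = 3.14e-05).

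The Notch ligand Dll1, which acts on neighbouring cells, was at or near the floor in dividing cells. Dll1 intensities were 675, 949 and 1102 on day 0, against 51.1, 79.4 and 74.4 on day -1, with every day 0 array above every day -1 array. It was at least 11.4-fold higher on day 0. Among 20 tested Notch pathway genes 4 rose and 1 fell, and without day 0 replicate 2, day -1 replicate 2 or day -1 replicate 3 only 2 rose, and 1 rose with scan day fixed. The Notch target Hes1 rose by 0.66 ± 0.13 (adjusted p = 0.00049), and the receptor Notch1 gave 0.05 ± 0.20 (adjusted p = 0.916). Rbpj, the DNA-binding effector of the pathway, fell by 0.69 (adjusted p = 0.0157), a call that was lost without day 0 replicate 1 (-0.65) or day -1 replicate 3 (-0.54).

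**Figure D2:**
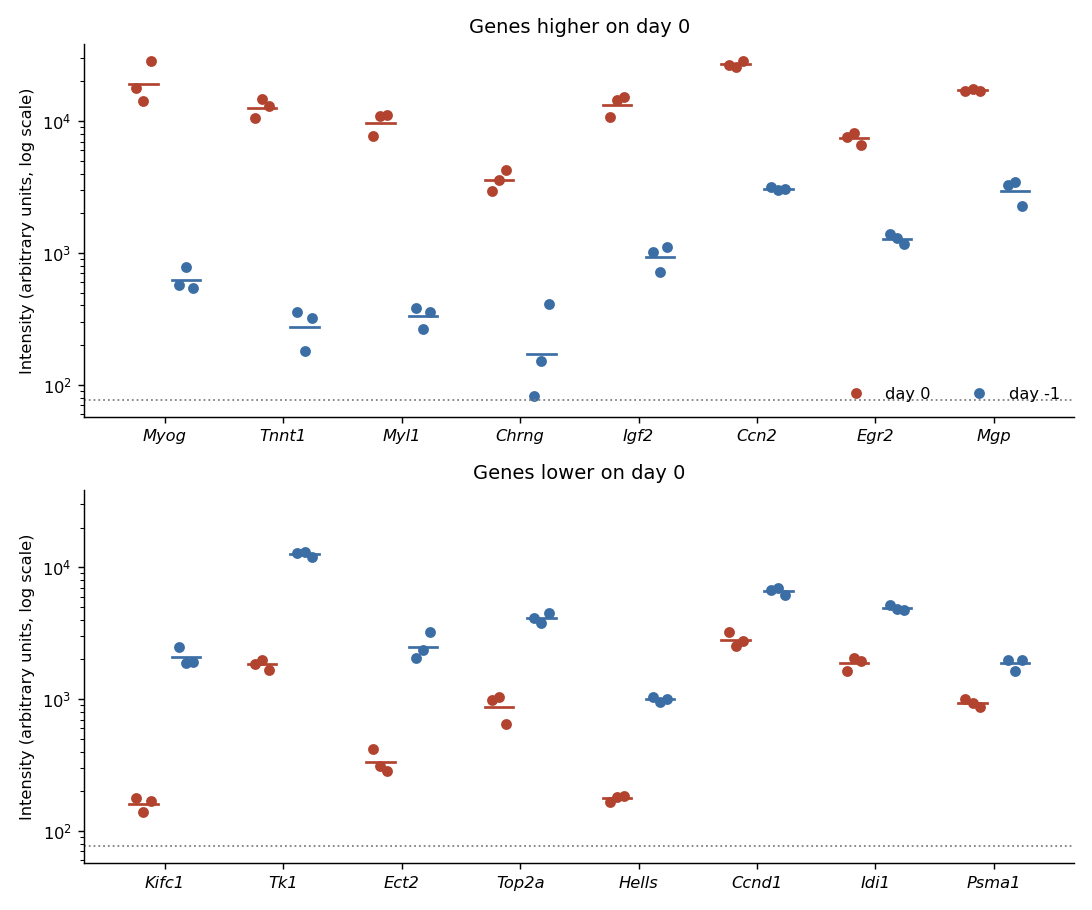
Intensity on each array (log axis, arbitrary units) for 8 genes higher and 8 genes lower on day 0, with day 0 in red at the left and day -1 in blue at the right of each gene; bars mark means of log2 intensity and the dotted line is the floor of 77. In none of the 16 genes, all picked from called genes, do the arrays of the 2 days overlap, as was so for 3370 of all 8484 tested probe sets.

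Sarcomere genes rose almost as a block. Of 14 tested slow, cardiac and developmental sarcomere genes 11 rose and none fell, with a median difference of 1.68. Of 11 fast sarcomere genes 8 rose and none fell, with a median of 1.97. Within the chip lot that held arrays of both days these medians were 1.65 and 2.18, and with each array left out in turn 9 or 10 of the slow and 8 of the fast genes were called. With scan day fixed, 8 slow and 7 fast genes were called higher. The 3 arrays of day 0 gave Tnnt1 intensities of 10624, 14774 and 12981, and those of day -1 gave 359.6, 181 and 318, and the 2 days did not overlap. Slow troponin T, Tnnt1, rose by 5.53 ± 0.18 (adjusted p = 2.41e-16), and on a second probe set by 1.84 (adjusted p = 1.61e-06). Myl1 read 7655, 10849 and 11119.8 on day 0 and 382, 265 and 354 on day -1, so that all day 0 values lay above all day -1 values. Myl1, the fast skeletal alkali light chain of myosin, rose by 4.88 ± 0.15 (adjusted p = 4.48e-17). On day 0 the intensities of Acta1 were 12388, 16872 and 16203, and on day -1 they were 910.4, 1172 and 992, without overlap. Skeletal alpha-actin, Acta1, rose by 3.88 ± 0.14 (adjusted p = 9.43e-16). Cardiac alpha-actin, Actc1, which is the main sarcomeric actin of young myotubes, rose by 6.38 ± 0.17 (adjusted p = 5.23e-18) on a probe set that was dim on day -1, with 5738, 10820.3 and 9055 on day 0 and 28.8, 119 and 107 on day -1. A second, brighter Actc1 probe set, of a type that can share sequence with related genes, rose by 1.98 ± 0.14 (adjusted p = 2.68e-10). Tnnc1 and Tnni1, the slow troponins C and I, rose by 2.95 ± 0.15 (adjusted p = 7.31e-13) and 3.55 ± 0.13 (adjusted p = 6.74e-16). Embryonic myosin heavy chain, Myh3, was under the floor on all 3 arrays of day -1 and was at least 5.93-fold higher on day 0. Fast troponin T, Tnnt3, was at least 8.17-fold higher.

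Parts of the sarcomere scaffold and of excitation moved the same way. Of 15 scaffold and Z-disc genes 11 rose and none fell, and 7 rose without day 0 replicate 1 and 4 with scan day fixed. Pdlim3, a Z-disc PDZ-LIM protein, rose by 2.74 ± 0.17 (adjusted p = 1.64e-11), and Ank1, an ankyrin whose muscle form ties the sarcoplasmic reticulum to the sarcomere, by 1.69 ± 0.22 (adjusted p = 2.55e-06). Desmin, the muscle intermediate filament and an early marker, differed by 0.50 ± 0.16 (adjusted p = 0.0227), and its call was lost without day 0 replicates 1 (0.48) or 2 (0.41) and without day -1 replicates 1 (0.42) or 3 (0.42). Of 15 calcium handling genes 9 rose and none fell, and 4 rose with scan day fixed. Atp2a1 intensities were 2001, 2982 and 2568 on day 0, against 300.5, 230.5 and 273 on day -1, with every day 0 array above every day -1 array. Atp2a1, the fast muscle calcium pump SERCA1, rose by 3.22 ± 0.22 (adjusted p = 1.31e-10). Ryr1, the calcium release channel, rose by 2.37 ± 0.20 (adjusted p = 4.86e-09), and Cacna1s, the voltage sensor that opens it, was at least 3.53-fold higher. Muscle creatine kinase, Ckm, was still near the floor: its arrays read 109, 172 and 199 on day 0 and were all below 77 on day -1, and its second probe set gave -0.57 (adjusted p = 0.446).

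Genes of the synapse and the muscle membrane rose as well. Of 24 tested genes of the neuromuscular junction and the dystrophin complex 12 rose and none fell, with a median of 0.59, and 6 rose with scan day fixed. The 3 arrays of day 0 gave Chrng intensities of 2951, 3586 and 4286, and those of day -1 gave 82.5, 151 and 409.7, and the 2 days did not overlap. Chrng, the gamma subunit that marks the fetal acetylcholine receptor, rose by 4.37 ± 0.33 (adjusted p = 6.75e-10). The spread on day -1 was wide, and its highest array still lay well under the lowest array of day 0. A second probe set of the gene rose by 2.76 (adjusted p = 2.29e-08). Chrnd, the delta subunit, rose by 1.95 ± 0.23 (adjusted p = 5.23e-07), and Chrna1, the alpha subunit, was 2.15-fold higher on day 0. Sgca, alpha-sarcoglycan of the dystrophin complex, rose by 2.26 ± 0.24 (adjusted p = 1.81e-07), and Erbb3, a neuregulin receptor, by 1.55 ± 0.13 (adjusted p = 3.03e-09), with a second Erbb3 probe set at the floor.

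Promoters of the genes that moved together are shown for 2 of the rising muscle genes. Each window runs from 250 bases before to 50 bases after the RefSeq start (build GRCm38.p6, plus or minus strand as given), 300 bases in all, printed in the direction of transcription. The E-box CAGCTG, a sequence bound by MyoD and myogenin, was searched on both strands (it reads the same on each) and is in capitals. It was present in 16.3% of 32851 promoter windows. Chrng, at chr1:87205561-87205860 on the plus strand, held 2 copies. Acta1, at chr8:123894726-123895025 on the minus strand, held 1 copy.
Chrng: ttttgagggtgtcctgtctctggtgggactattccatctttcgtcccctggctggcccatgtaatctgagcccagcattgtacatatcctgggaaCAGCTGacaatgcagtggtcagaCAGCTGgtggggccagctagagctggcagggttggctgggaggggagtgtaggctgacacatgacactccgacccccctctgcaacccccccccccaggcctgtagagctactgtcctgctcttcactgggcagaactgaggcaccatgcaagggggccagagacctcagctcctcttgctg
Acta1: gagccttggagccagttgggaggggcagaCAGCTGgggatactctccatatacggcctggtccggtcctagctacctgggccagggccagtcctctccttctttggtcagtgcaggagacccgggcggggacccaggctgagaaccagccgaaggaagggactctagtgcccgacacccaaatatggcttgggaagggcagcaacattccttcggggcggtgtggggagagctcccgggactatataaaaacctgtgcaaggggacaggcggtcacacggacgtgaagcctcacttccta
Among promoters of called fast sarcomere genes, 4 of 6 windows from 6 genes held CAGCTG (66.7%), and among those of called slow, cardiac and developmental ones 5 of 15 windows from 11 genes did (33.3%). These matches describe the letters in the windows and not binding.

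Genes of cell division fell almost as a block. Of 55 tested genes of mitosis and G2/M, 53 were lower on day 0 (96.4%) and none was higher, with a median difference of -1.74. Of 55 genes of DNA replication and S phase, 46 were lower (83.6%) and none was higher, with a median of -1.4. With any 1 of the 6 arrays left out, between 51 and 53 mitosis genes and 45 or 46 replication genes were called lower. The counts take each gene by its brightest probe set, and Pola2, a subunit of the polymerase that starts DNA strands, had probe sets called both ways, from -1.4 to 1.66. In the chip lot that held both days, with 2 arrays of day 0 and 1 of day -1, the medians were -1.72 and -1.56. Between the remaining arrays they were -1.77 and -1.54. Those day 0 and day -1 arrays were on different lots, so lot and day cannot be told apart in that difference. The day before, the same lists had medians of -0.02 and -0.1 and 0 and 1 genes called lower.

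Kifc1, a minus-end kinesin of the spindle, had the largest fall among called probe sets that name 1 gene. Kifc1 read 179, 140.2 and 168 on day 0 and 2497, 1872 and 1904 on day -1, so that all day 0 values lay below all day -1 values. The difference was -3.68 ± 0.30 (adjusted p = 2.34e-09), 12.8-fold lower on day 0. Ect2, the exchange factor that positions the cleavage furrow, fell by 2.90 (adjusted p = 2.69e-07), with intensities of 422, 311 and 287 on day 0 and 2069, 2343 and 3227 on day -1. Bub1, a kinase of the spindle checkpoint, fell by 2.41 (adjusted p = 1.64e-08). On day 0 the intensities of Top2a were 992, 1030.0 and 652, and on day -1 they were 4159.5, 3765 and 4472, without overlap. Top2a, which untangles chromosomes before they separate, fell by 2.24 (adjusted p = 6.27e-09). The proliferation marker Mki67 fell by 1.89 (adjusted p = 1.47e-05), while its second, dimmer probe set gave 0.32 (adjusted p = 0.634). Cyclin A2, Ccna2, fell by 1.13 (adjusted p = 3.9e-07). Foxm1, a transcription factor of G2/M genes, fell on both of its probe sets, by 2.52 and 0.79. Rangap1, which drives the Ran cycle of spindle assembly and nuclear transport, fell by 2.38 (adjusted p = 9.54e-08).

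Tk1, thymidine kinase, supplies a building block for DNA synthesis. Tk1 intensities were 1856, 1988 and 1671 on day 0, against 12870.1, 13078 and 12056 on day -1, with every day 0 array below every day -1 array. It fell by 2.79 (adjusted p = 4.97e-13). The replicates of each day lay within a narrow band, and the bands were 6.9-fold apart. Asf1b, a chaperone that delivers histones to new DNA, fell by 2.88 (adjusted p = 2.72e-10). The 3 arrays of day 0 gave Hells intensities of 166, 182 and 184, and those of day -1 gave 1035, 959.6 and 997, and the 2 days did not overlap. Hells, a chromatin remodeller needed for DNA methylation, fell by 2.49 (adjusted p = 6.55e-07). Geminin, Gmnn, which blocks a second round of replication, fell by 2.30 (adjusted p = 1.3e-05). Mcm5, a subunit of the replicative helicase, fell by 1.59 (adjusted p = 2.86e-07), with 0.78 (adjusted p = 0.334) on a second probe set, and Pcna, the polymerase clamp, by 1.06 (adjusted p = 1.46e-05).

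Falling promoters are printed for Top2a and Kifc1 of the mitosis group and Hells of the replication group. Capitals mark CCAAT and the cell cycle homology region TTTGAA or its variant TTCGAA in the mitosis promoters, and CCAAT or the E2F-like TTCCCGC in Hells, each searched on both strands, with no match overlapping another. A match on the other strand shows as its reverse complement, ATTGG for CCAAT and TTCAAA for TTTGAA. Top2a lies at chr11:99024140-99024439 on the minus strand and held 6 copies of CCAAT, 2 of TTTGAA and 2 of TTCGAA. Kifc1, at chr17:33890584-33890883 on the minus strand, held 3 copies of CCAAT and 1 of TTTGAA. Hells, at chr19:38930740-38931039 on the plus strand, held 1 copy of TTCCCGC.
Top2a: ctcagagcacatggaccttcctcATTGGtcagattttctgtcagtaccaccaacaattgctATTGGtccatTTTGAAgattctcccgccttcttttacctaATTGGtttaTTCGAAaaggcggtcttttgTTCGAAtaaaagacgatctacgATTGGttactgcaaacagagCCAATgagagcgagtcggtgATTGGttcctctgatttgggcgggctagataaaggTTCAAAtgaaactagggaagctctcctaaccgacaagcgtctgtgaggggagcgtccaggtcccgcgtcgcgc
Kifc1: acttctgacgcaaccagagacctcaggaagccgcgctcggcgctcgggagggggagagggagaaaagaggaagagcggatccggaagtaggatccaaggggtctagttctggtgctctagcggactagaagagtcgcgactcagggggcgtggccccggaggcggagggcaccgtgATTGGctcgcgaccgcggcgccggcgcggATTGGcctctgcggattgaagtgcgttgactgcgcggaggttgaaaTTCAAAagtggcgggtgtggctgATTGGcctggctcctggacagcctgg
Hells: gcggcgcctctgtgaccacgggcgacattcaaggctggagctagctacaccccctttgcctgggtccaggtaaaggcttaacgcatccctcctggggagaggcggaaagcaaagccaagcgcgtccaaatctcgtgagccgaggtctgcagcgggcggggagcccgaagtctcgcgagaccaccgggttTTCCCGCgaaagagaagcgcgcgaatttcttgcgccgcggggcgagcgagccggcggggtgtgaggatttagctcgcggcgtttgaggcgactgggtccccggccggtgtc
CCAAT was present in 37.4% of all windows and in 35 of 45 windows from 42 called mitosis genes (77.8%), and TTTGAA in 17.9% of all windows and in 33 of those 45 (73.3%). TTCCCGC was present in 4.6% of all windows, in 19 of 49 windows from 40 called replication genes (38.8%) and in 1 of the 45 mitosis windows (2.22%). TTCGAA was present in 1.56% of all windows and in 2 of the 45 (4.44%).

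Chromatin proteins of dividing cells followed. Of 28 tested HMGA, histone and chromatin assembly genes 16 fell and 2 rose, with a median of -0.54, and 4 fell with scan day fixed. Hmgb2 and Hmgb3, DNA-bending proteins of proliferating cells, fell by 2.11 and 1.52 (adjusted p = 8.54e-06 and 3.9e-11). Hmga2 read 8471, 7582 and 10365 on day 0 and 4349, 3428 and 3879 on day -1, so that all day 0 values lay above all day -1 values. Hmga2, a related architectural protein, went the other way, by 1.18 ± 0.24 (adjusted p = 0.00072).

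The regulators that open and close the cell cycle did not move as one. Of 15 tested G1 cyclins, cyclin-dependent kinases and E2F factors 2 rose and 3 fell, shares near those of all genes, and none was called with scan day fixed. On day 0 the intensities of Ccnd1 were 3236, 2525 and 2784, and on day -1 they were 6698, 6991 and 6118, without overlap. Ccnd1, cyclin D1, fell by 1.22 (adjusted p = 5.13e-05). Ccnd3, the D-type cyclin that stays on in muscle, rose by 0.60 ± 0.10 (adjusted p = 6.95e-05). Tfdp1, the dimer partner of E2F proteins, fell by 1.19 (adjusted p = 1.57e-07), with -1.04 (adjusted p = 7.54e-05) and -0.33 (adjusted p = 0.576) on its other probe sets. E2f1 gave -0.49 ± 0.32 (adjusted p = 0.307) on its brighter probe set and -1.44 (adjusted p = 0.00139) on the other. Of 29 tested inhibitors and growth arrest genes 6 rose and 9 fell, and with scan day fixed 2 rose and 4 fell. Cdkn1a, the inhibitor p21 that MyoD is known to induce, had 3382, 3529 and 3768 on day 0 and 6040.3, 4768 and 2901 on day -1. Its arrays overlapped, the difference was -0.30 ± 0.21 (adjusted p = 0.352), and its second probe set gave 0.45 (adjusted p = 0.0143). Cdkn1c, the inhibitor p57, rose by 1.09 ± 0.25 (adjusted p = 0.00214), though the call was lost with a floor at the 40th percentile (0.32). Cdkn2d, the inhibitor p19, fell by 2.88 (adjusted p = 2.4e-07), with intensities of 564, 638 and 145 on day 0 and 2748, 2683 and 2802 on day -1. Rbl1, the pocket protein p107 of dividing cells, fell by 2.26 (adjusted p = 1.81e-07), and Rb1 gave 0.36 ± 0.15 (adjusted p = 0.0824). Gadd45a, a growth arrest and stress sensor, rose by 1.93 ± 0.12 (adjusted p = 2.69e-11), and Btg2, an antiproliferative gene, by 1.09 ± 0.13 (adjusted p = 5.23e-07).

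**Figure D3:**
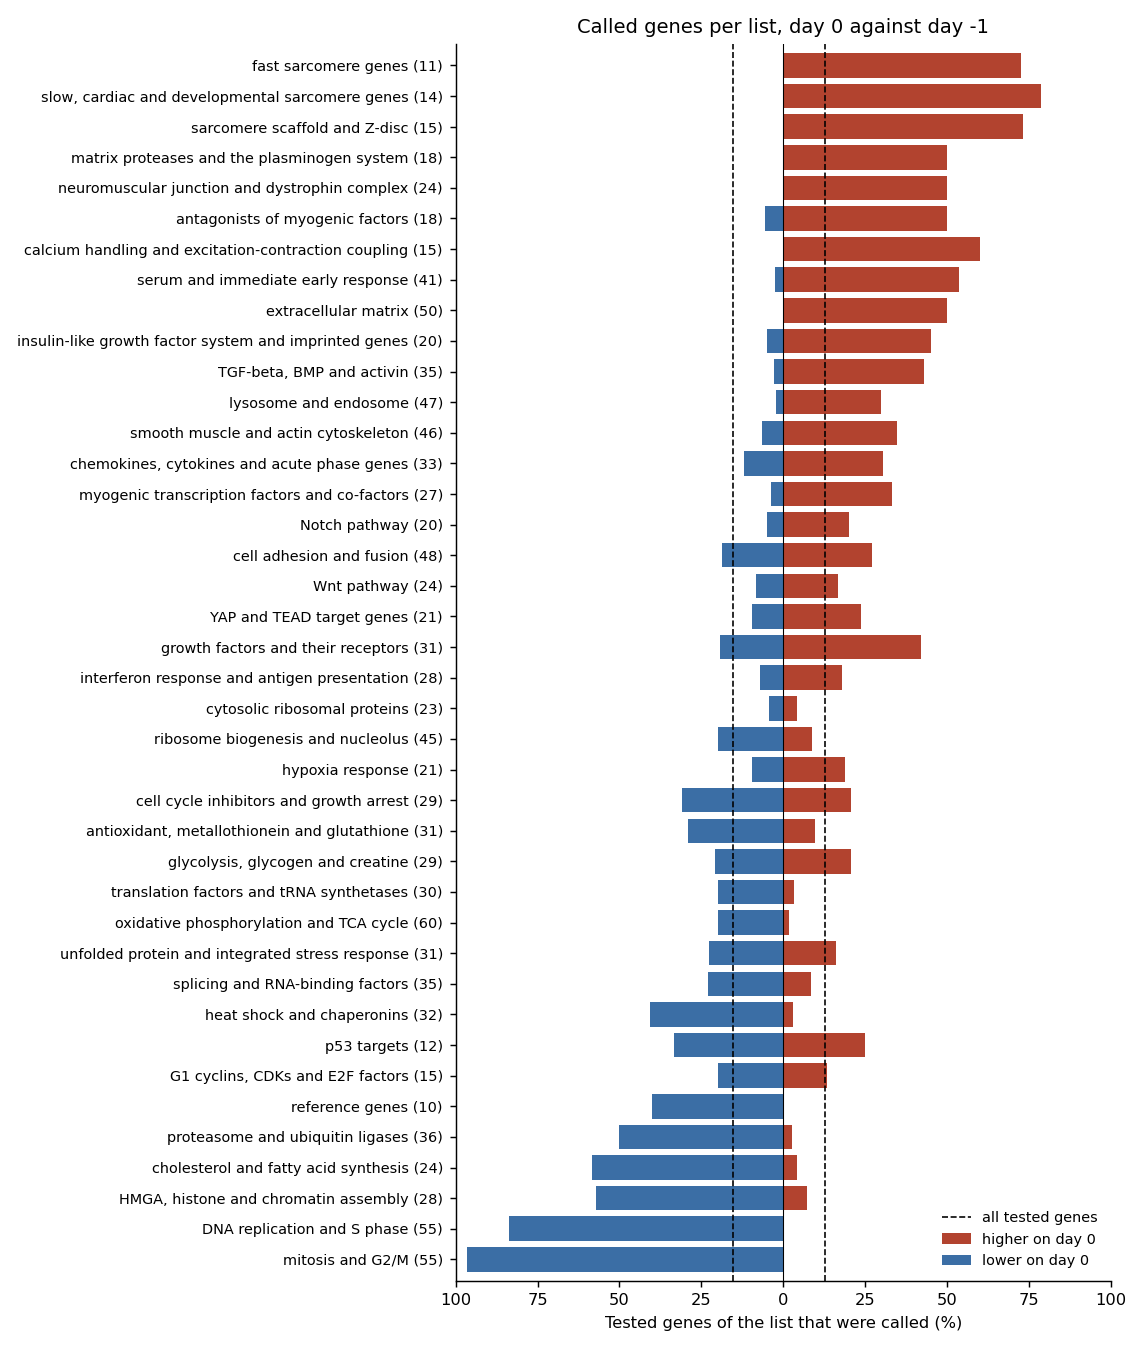
Share of the tested genes of each list that were called higher (red, to the right) or lower (blue, to the left) on day 0; the number tested stands after the list's name, lists run from the highest median difference at the top to the lowest, and dashed lines mark the 12.6% and 15.2% of all tested genes. Bars of the muscle structure lists lie on the right alone, and those of mitosis and DNA replication reach 96.4% and 83.6% on the left alone.

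Secreted signals changed next to the muscle genes. Of 20 tested genes of the insulin-like growth factor system and imprinted genes 9 rose and 1 fell, and 2 rose with scan day fixed. Igf2 intensities were 10659, 14350.4 and 15196 on day 0, against 1015, 721 and 1115 on day -1, with every day 0 array above every day -1 array. Igf2, an autocrine growth factor that drives differentiation in this line, rose by 3.83 ± 0.22 (adjusted p = 5.3e-12), 14.2-fold. Its clearance receptor Igf2r rose by 0.90 ± 0.15 (adjusted p = 7.25e-05), and the imprinted gene Mest by 1.86 ± 0.27 (adjusted p = 1.44e-05). Of 35 genes of TGF-beta, BMP and activin signalling 15 rose and 1 fell, with a median of 0.36, and 3 rose with scan day fixed. The 3 arrays of day 0 gave Fst intensities of 2170.2, 2623 and 2503, and those of day -1 gave 432, 341 and 294, and the 2 days did not overlap. The ligands Inhba and Tgfb1 rose by 2.18 ± 0.23 (adjusted p = 1.19e-07) and 1.45 ± 0.19 (adjusted p = 4.09e-06), and follistatin, Fst, which traps activin and myostatin, rose by 2.79 ± 0.17 (adjusted p = 1.74e-11). The receptor Acvr1 rose by 1.76 ± 0.28 (adjusted p = 3.91e-05). Of 31 growth factors and receptors 13 rose and 6 fell, and with scan day fixed 2 rose and none fell. Fgfr4, a fibroblast growth factor receptor of muscle precursors, was at least 4.33-fold higher, Ddr1, a collagen receptor, rose by 1.56 ± 0.11 (adjusted p = 1.91e-10), and Vegfa, an angiogenic factor, by 1.19 ± 0.17 (adjusted p = 7.06e-06). Pdgfra, the receptor for platelet-derived growth factor A, fell by 1.89 (adjusted p = 0.00166), with intensities of 557, 501 and 145 on day 0 and 1373, 1221 and 1221 on day -1, while its second probe set gave 0.33 (adjusted p = 0.476).

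Matrix genes moved in 1 direction. Of 50 tested extracellular matrix genes 25 rose and none fell, with a median of 0.43, and of 18 matrix proteases and plasminogen system genes 9 rose and none fell. With scan day as a fixed factor 4 of the matrix genes and 1 of the protease genes were called higher. Mgp read 17025, 17453 and 17059 on day 0 and 3262, 3424 and 2265 on day -1, so that all day 0 values lay above all day -1 values. Mgp, matrix Gla protein, rose by 2.55 ± 0.16 (adjusted p = 3.11e-11), and Ogn and Dcn, small leucine-rich proteoglycans, by 2.15 ± 0.13 (adjusted p = 2e-11) and 2.25 ± 0.34 (adjusted p = 2.15e-05). Col6a1, of the microfibril collagen around muscle fibres, rose by 1.88 ± 0.17 (adjusted p = 1.03e-08), and Timp3, a protease inhibitor, by 1.45 ± 0.17 (adjusted p = 7.32e-07). C1qtnf3, a secreted relative of adiponectin, was 14.6-fold higher on day 0. Adhesion genes split, with 13 of 48 tested higher and 9 lower, and 3 each way with scan day fixed. Itga5, the fibronectin receptor subunit, rose by 2.42 ± 0.20 (adjusted p = 3.61e-09), and Itga7, the laminin receptor subunit of muscle, by 0.85 ± 0.12 (adjusted p = 1.03e-05). N-cadherin, Cdh2, fell by 1.00 (adjusted p = 1.73e-05), Gja1, the gap junction protein connexin 43, by 1.15 (adjusted p = 1.38e-07), and M-cadherin, Cdh15, gave 0.18 ± 0.11 (adjusted p = 0.257). Vcam1 had probe sets called in both directions, -0.70 on the brightest and 1.16 (adjusted p = 0.000653) on another, 1 of 6 genes with calls both ways among 1147 that had several tested probe sets.

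Cytoskeletal genes leaned upward, with 16 of 46 tested smooth muscle and actin genes higher and 3 lower, and 1 lower without day 0 replicate 1, day 0 replicate 3 or day -1 replicate 1. With scan day fixed 3 were higher and none was lower. Lima1, an actin-bundling LIM protein, rose by 1.88 ± 0.15 (adjusted p = 1.17e-09), and Csrp1, a LIM protein of smooth muscle, by 1.27 ± 0.12 (adjusted p = 2.5e-08). YAP and TEAD are factors that are active in spread cells and held back in crowded ones. In a list of their targets that also holds a pathway member, 5 of 21 tested genes rose and 2 fell. The median was 0.1. When any array other than day 0 replicate 1 was left out 1 fell, and with scan day fixed none fell. Ccn2 and Ccn1, matricellular proteins often read as targets of YAP and TEAD, were among the 5. The pathway member Wwtr1, which encodes the YAP relative TAZ, was also among the 5 and is not counted here as a target. It rose by 1.94 ± 0.23 (adjusted p = 8.34e-07).

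Some of these genes had moved the other way the day before. The step from day -1 to day 0 was tested against the step of equal length from day -2 to day -1. This test calls any difference between the steps, and not reversals alone. The change between the steps was called for 952 probe sets, 413 more positive (4.87%) and 539 more negative (6.35%). Of the more positive, 368 were also called higher on day 0, and of the more negative, 468 were also called lower. Over all tested probe sets 11.9% were called higher on day 0 and 13.9% lower. The change between the steps contains the step to day 0, so this overlap is largely built in and is no separate result. Both steps use the day -1 arrays, so values of 1 step bear on the other. Without day -1 replicate 1 the number called was 598, and without day -1 replicate 2 it was 628, and those 2 arrays shared a chip lot and a scan day. Counts per list for the step before, and for the change between the steps, are given from the main fit alone, without scan day.

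Genes of the serum and immediate early response turned between the steps. Of 41 tested, 22 rose and 1 fell on day 0, while 17 had fallen and 1 had risen the day before, and the change between the steps was more positive in 23 and more negative in none. With scan day fixed 11 rose on day 0. Over all tested genes, 5.28% had a more positive and 7.28% a more negative change between the steps, and 7.0% had risen and 3.47% had fallen the day before. Ccn2, connective tissue growth factor, had mean log2 intensities of 13.58 ± 0.04 on day -2, 11.59 ± 0.04 on day -1 and 14.72 ± 0.08 on day 0 (SD, n = 3). On day 0 the intensities of Ccn2 were 26476, 25897 and 28609, and on day -1 they were 3157, 2998 and 3072, without overlap. It differed by 3.13 ± 0.091 (adjusted p = 2.93e-17) in the step to day 0 and by -1.99 ± 0.091 (adjusted p = 5.58e-13) in the step before. Ptgs2, the inducible prostaglandin synthase, followed the same course, with 12.13 ± 0.28, 10.14 ± 0.07 and 12.64 ± 0.15 on the 3 days in order. It rose by 2.51 ± 0.16 (adjusted p = 4.54e-11) after -2.00 ± 0.16 (adjusted p = 1.49e-08). Ccn1 rose by 1.87 ± 0.18 (adjusted p = 2.72e-08) after -1.34 ± 0.18 (adjusted p = 1.64e-05), and Hbegf, a ligand of the epidermal growth factor receptor, by 1.59 ± 0.16 (adjusted p = 6.65e-08) after -0.84 ± 0.16 (adjusted p = 0.00113). Egr2, a zinc-finger factor, rose in both steps, by 2.53 ± 0.15 (adjusted p = 1.13e-11) after 0.99 ± 0.15 (adjusted p = 8.3e-05). Fos gave 0.62 ± 0.34 (adjusted p = 0.218), with overlapping arrays, and Myc 0.33 ± 0.19 (adjusted p = 0.244), after -0.85 ± 0.19 (adjusted p = 0.00591). Outside the list, Inhba, Fst and Itga5 also fell before they rose, by -1.08, -0.74 and -0.86, and so did Col1a1, the main collagen of connective tissue, which rose by 0.74 ± 0.17 (adjusted p = 0.00232) after -1.37 ± 0.17 (adjusted p = 8.7e-06).

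**Figure D4:**
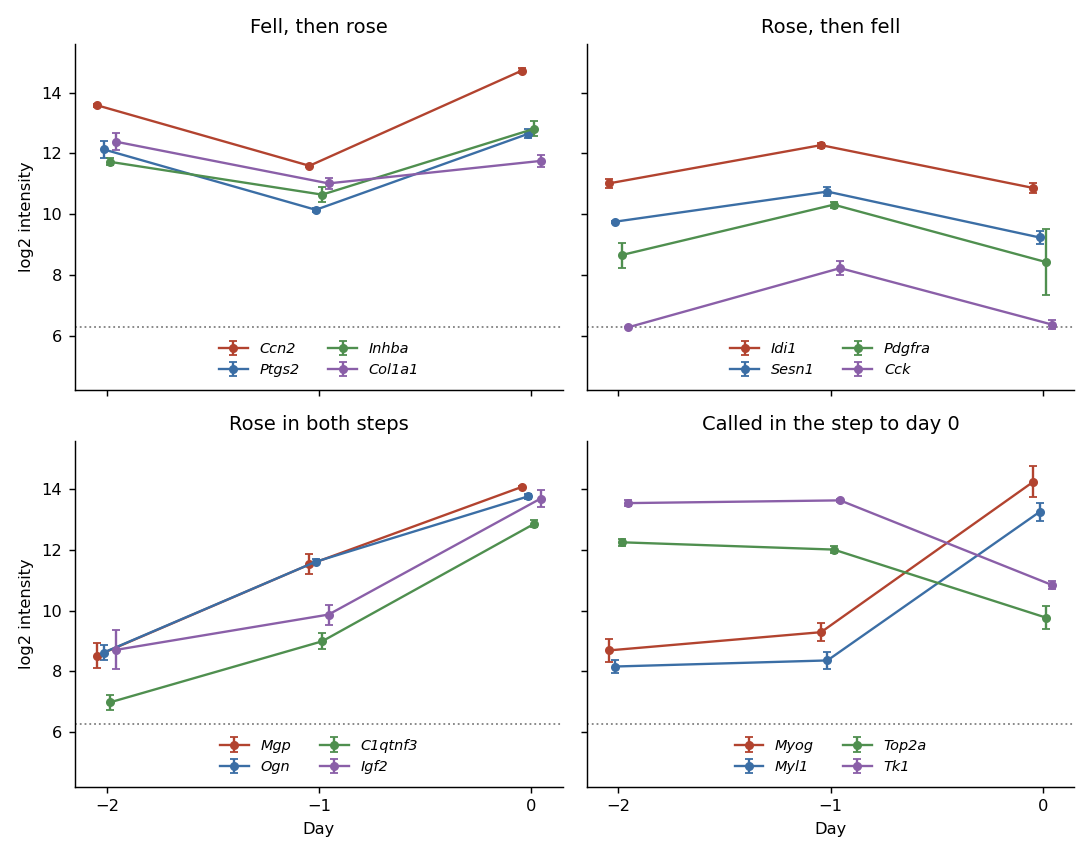
Mean log2 intensity ± SD (n = 3 arrays) on days -2, -1 and 0 for 16 genes in 4 panels, with the floor as a dotted line. Ccn2, Ptgs2, Inhba and Col1a1 are lowest on day -1, Idi1, Sesn1, Pdgfra and Cck are highest there, Mgp, Ogn, C1qtnf3 and Igf2 rise at each step, and Myog, Myl1, Top2a and Tk1 were called in the step to day 0 alone, with the change between the steps called for each of the 4.

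Lipid synthesis turned in the opposite sense. Of 24 tested genes of cholesterol and fatty acid synthesis 14 fell and 1 rose on day 0, with a median of -0.47, while 10 had risen and 1 had fallen the day before, with a median of 0.43. The change between the steps was more negative in 11 and more positive in none. With scan day fixed, 2 genes were called lower on day 0. Idi1 intensities were 1629.8, 2052 and 1939 on day 0, against 5221, 4867 and 4712 on day -1, with every day 0 array below every day -1 array. Idi1, an isomerase of the mevalonate pathway, fell by 1.40 (adjusted p = 2.14e-09) after 1.25 ± 0.11 (adjusted p = 8.06e-08). Elovl6, a fatty acid elongase, and Dhcr7, the last enzyme of cholesterol synthesis, fell by 1.73 and 1.62 (adjusted p = 9.54e-08 and 7.02e-07). Targets of p53 did not move as 1 group, with 3 of 12 tested higher and 4 lower on day 0, and the change between the steps more positive in 3 and more negative in 4. The 3 higher were Gadd45a and Btg2, described among the inhibitors, and Phlda3, which rose by 0.93 ± 0.096 (adjusted p = 9.36e-08). Among the 4 lower were Sesn1, a stress-induced inhibitor of growth signalling, which fell by 1.51 (adjusted p = 1.15e-09) after 0.98 ± 0.12 (adjusted p = 4.46e-06), and the cyclin Ccng1, which fell by 1.14 (adjusted p = 1.49e-05) after 0.55 ± 0.17 (adjusted p = 0.042). Cck, the peptide hormone cholecystokinin, was at the floor on day -2 and had intensities of 54.0, 92.9 and 58.5 on day 0 and 351, 254 and 296 on day -1, at least 3.64-fold lower on day 0.

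Ribosome biogenesis had already fallen before the cells became confluent. Of 45 tested genes 27 had fallen and none had risen between day -2 and day -1, with a median of -0.63. In the step to day 0, 4 rose and 9 fell, with a median of 0.01 (with scan day fixed none rose and 2 fell), and the change between the steps was more positive in 11 and more negative in 1. Bysl and Rrp1b, assembly factors of the small and large ribosomal subunits, rose by 0.83 ± 0.15 (adjusted p = 0.000186) and 0.80 ± 0.15 (adjusted p = 0.000176) after -0.66 ± 0.15 (adjusted p = 0.00621) and -0.89 ± 0.15 (adjusted p = 0.000203). Ranbp1, a cofactor of the Ran cycle of nuclear transport, fell by 1.16 (adjusted p = 5.16e-07). Fibrillarin, Fbl, fell by 0.68 (adjusted p = 2.9e-05). Of 23 cytosolic ribosomal protein genes 1 rose and 1 fell, with a median of 0.05, and 2 rose without day 0 replicate 2 or without day -1 replicate 2.

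Protein quality control fell by smaller amounts. Of 36 tested proteasome and ubiquitin ligase genes 18 fell and 1 rose, with a median of -0.35, and of 32 heat shock and chaperonin genes 13 fell and 1 rose, with a median of -0.27. Without day 0 replicate 2 the heat shock count was 8, and with scan day fixed 4 heat shock genes and no proteasome gene were called lower. Psma1 and Psmd13, proteasome subunits, fell by 1.00 and 0.90 (adjusted p = 4.22e-05 and 5.94e-06), and Fkbp4 and Stip1, partners of Hsp90, by 1.05 and 0.97 (adjusted p = 4.95e-08 and 1.61e-06), with -0.49 (adjusted p = 0.198) on a second Fkbp4 probe set. Lysosome genes went the other way, with 14 of 47 higher and 1 lower, and 16 of the 47 had already risen the day before, while 2 rose on day 0 with scan day fixed. Of 31 genes of the unfolded protein and integrated stress response 5 rose and 7 fell, and with scan day fixed 1 fell: Dnajb9, an endoplasmic reticulum chaperone, rose by 2.02 ± 0.29 (adjusted p = 8.84e-06) and Xbp1, a factor of the unfolded protein response, by 0.92 ± 0.11 (adjusted p = 1.55e-06), whereas Psat1 and Psph, enzymes of serine synthesis, fell by 1.34 and 1.27 (adjusted p = 6.27e-09 and 1.73e-08). Of 60 genes of oxidative phosphorylation and the TCA cycle 12 fell and 1 rose. Of these, 7 fell without day 0 replicate 1 and 6 without day -1 replicate 2, and none was called with scan day fixed. Over all tested genes 12.6% rose and 15.2% fell. The share of the 60 genes that fell was near that of all genes, and the share that rose was lower. In the unfolded protein and stress list both shares lay somewhat above those of all genes. Among 10 genes often used as references 4 fell and none rose (2 fell without day 0 replicate 2, and none with scan day fixed), Hprt by 0.62 and Gusb by 0.65 (adjusted p = 9.33e-05 and 0.000807).

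Among cytokines some fell and others rose. Cxcl5, a neutrophil chemokine, fell by 2.96 (adjusted p = 0.000208), with intensities of 75.8, 158 and 271 on day 0 and 1122, 965 and 1441 on day -1. Cxcl1, a close relative, fell by 1.76 on its brightest probe set (adjusted p = 0.000805). Cx3cl1, a membrane-bound chemokine, rose by 1.71 ± 0.19 (adjusted p = 3.52e-07), and Il6, which muscle cells secrete, was under the floor on all day -1 arrays and was at least 4.91-fold higher on day 0. Of the 33 genes of this list 10 rose and 4 fell, and 2 fell without day 0 replicate 1 or without day -1 replicate 2, while with scan day fixed 2 rose and none fell.

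Markers were read to check the label and to look for other cells. All 8 myoblast markers on the array were above an intensity of 277.7 on all 6 arrays, and their summed intensity lay between 47741 and 50862 on day 0 and between 30041 and 30330 on day -1. Myod1 held most of the day 0 sum, and without it the other 7 summed to between 20793 and 25242 on day 0 and between 17916 and 18227 on day -1. Vcam1, by its brightest probe set, and Myf5 were among the markers called lower. Of 8 macrophage and leukocyte markers 3 (Itgam, Lyz2 and Ptprc) were at the floor on all 6 arrays, and the sum lay between 2117 and 2472 on day 0 and between 2241 and 2629 on day -1. Cd14 read between 1444 and 1776 on the 6 arrays and held most of each sum, and Cd68 and Csf1r read up to 351 and 341. The 6 endothelial markers summed to between 384 and 1144 on day 0 and between 444 and 1165 on day -1, with Cdh5 at the floor throughout. Sums of 5 neural markers lay between 548 and 1096 on day 0 and between 913 and 1134 on day -1, and those of 4 osteoblast and chondrocyte markers between 582 and 1154 on day 0 and between 786 and 1084 on day -1. The 6 adipocyte markers summed to between 6612 and 6796 on day 0 and between 3243 and 3366 on day -1, and Lpl and Cebpa held most of these sums. Lpl, lipoprotein lipase, which muscle also makes, rose by 3.00 ± 0.40 (adjusted p = 3.24e-06), and Cebpa, an adipogenic transcription factor, by 0.56 ± 0.11 (adjusted p = 0.000431). Pparg went the other way without a call, with 191, 228 and 193 on day 0 and 339, 269 and 314 on day -1. Adipoq, Cd36 and Fabp4 read no higher than 149.8 on any of the 6 arrays. The part of other cells in these marker values was not tested.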

How the data were processed

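The deposited values are 1 linear intensity per probe set and array of the Affymetrix MG_U74Av2 chip, already scaled by the authors so that the trimmed mean of each array is equal; the chip type and lots are per the file headers, and the software that summarised probes is not given in the sources used here. Groups were taken from the sample labels. Intensities were raised to a floor of 77 (the 20th percentile) and taken to log2. Probe sets above 277.7 (the 40th percentile) in the mean of at least 1 day were kept, 8484 of 12422. Control probe sets were left out. Gene names came from the platform annotation: 10833 probe sets named 1 gene, 396 several and 1193 none.

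All 24 arrays were fitted with limma 3.58.1 in R 4.3.3 (lmFit, and eBayes with a trend), so that the 8 days share 1 estimate of spread, and p-values were adjusted by the Benjamini-Hochberg method. On simulated data with the same 8484 probe sets, 65% of log2 changes of 1 and 90% of changes of 2 were recovered, and 7 of 162 calls were false. The simulated noise was independent between arrays, with no floor and no effect of scan day or chip lot. Only 100 probe sets changed at each size. The rate of false calls in the real data was not tested. The 46 gene lists, the genes and the comparison itself were chosen with earlier results of these data known. A gene stands in a list by its brightest tested probe set. Named genes were the 15 largest called rises and falls, up to 4 called members per list and direction, a list of key genes whatever their result, the 8 largest called differences between the steps each way, and genes whose call another setting changed. Replicate numbers were not treated as pairs, since same-numbered arrays of the 2 days deviated with correlations of -0.084, -0.103 and -0.018. Promoter windows are RefSeq's (GRCm38.p6). Alternatives covered the floor, filter, normalization, variance prior, arrays in the fit, chip lot, scan day and each array left out. The precision is limited by the 3 arrays of each day.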

Additional observations from a re-analysis of the deposited data

How the results depend on the processing

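The number of probe sets called between day 0 and day -1 was 2189 (1011 higher, 1178 lower). It was between 1785 and 1961 with 1 array of either day left out (809 to 927 higher, 957 to 1060 lower), and between 1854 and 2238 under 12 other settings (836 to 1046 higher, 1018 to 1205 lower), which cover the floor, the pseudocount, the filter, quantile normalization, the variance prior, the 6 arrays alone, the replicate block, chip lot, and scan day as a random block. The replicate block gave 2238 calls, and the numbers do not pair the arrays. With scan day as a fixed factor 274 were called (152 higher, 122 lower), and with the largest chip lot alone, a setting chosen after seeing the data, 1276 (623 higher, 653 lower). That lot holds 2 arrays of day 0 and 1 of day -1, so the lone array is assumed to vary like those of other days. The change between the steps was called for 952 (413 more positive, 539 more negative), for 598 to 979 with 1 array left out (279 to 424, and 312 to 557), for 59 (35 and 24) with scan day fixed and for 122 (81 and 41) in the largest lot. The step before had 788 calls (515 higher, 273 lower), 499 to 789 with 1 array left out (329 to 520, and 164 to 269), 137 (100 and 37) with scan day fixed and 67 (53 and 14) in the largest lot. Among the fits with 1 array left out, the lowest totals of both came without day -1 replicate 1. Of 256 named probe sets, 94 kept their call and direction, or stayed uncalled, with scan day fixed, 156 lost the call and 6 changed sign, none of them called there: Gstm1 (-0.13), Irgm1 (-0.1), Ncl (0.1), Pdlim1 (0.04), Scd1 (-0.08) and Tubb3 (0.13). The fixed scan day leaves only day 0 replicate 3 and day -1 replicate 3 to carry the difference between these days. The largest lot also leaves fewer arrays that link the days. How far scan day itself moved the values was not tested. Signal near the floor limits folds, and with the floor at the 40th percentile 11 named probe sets lost their call, Ckm, Il6, Cacna1s, Cck and Cdkn1c among them.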
